A study of Homo sapiens and Mus musculus with 74 samples.

Results

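Disome-seq and Ribo-seq libraries from wild-type (WT) mouse kidney were compared gene by gene, so that the mRNAs with the most and the fewest stacked ribosomes relative to single ribosomes in a normal kidney could be listed. The 5550 genes compared were those, of 22484 genes with a coding transcript in the mouse count table, that had at least 10 counts in each of the 6 libraries, taking from each gene the isoform that encodes the longest protein. The comparison used 6 of the 74 samples of the series, namely 3 WT mouse kidney disome-seq and 3 WT mouse kidney Ribo-seq libraries. All came from kidney lysates that were digested with RNase I, and no treatment is named for the animals. The study describes the mice used for kidney Ribo-seq as 10-week-old males. WT mice carry an intact Rpl41 gene, whereas the Rpl41 KO mice, whose 6 kidney libraries served here only as a second set of animals, had been made by electroporating Cas9 ribonucleoproteins into C57BL/6J zygotes and lack Rpl41 in every cell. Rpl41 encodes the smallest ribosomal protein. Counts of its isoform used here were 85, 41 and 50 in WT Ribo-seq and 154, 130 and 71 in WT disome-seq. They were between 0 and 2 in each of the 6 Rpl41 KO libraries, so every library matched its genotype label.

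A translating ribosome shields a short stretch of mRNA from nuclease, and Ribo-seq sequences these monosome footprints (17 to 34 nucleotides in this study). When a ribosome slows, the one behind can run into it, and the stacked pair, called a disome, shields a longer stretch, here taken as 50 to 80 nucleotides. Collided ribosomes are recognised by the ubiquitin ligase ZNF598 (Zfp598 in the mouse) and by EDF1, and persistent collisions lead to ribosome splitting and to decay of the nascent chain. Proteins that enter the endoplasmic reticulum (ER) are translated on its membrane, where the signal recognition particle (SRP) first binds the hydrophobic signal of the nascent chain and can slow the ribosome. The kidney makes many such proteins, since the proximal tubule reabsorbs most of the filtered salt, glucose, amino acids, phosphate and protein through membrane transporters and endocytic receptors.

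The 2 ends of the ranking differed in what their coding sequences encode, as the gene groups further below describe. Genes of the 2 sets shown here were first restricted to those with an early hydrophobic window or rich in lysine and glutamate. The stretch strongest in that trait was then picked. The following 30-base stretches therefore illustrate the contrast and are no evidence for it. All stretches were read from RefSeq's GRCm38 genome at GENCODE M21 coding positions. They were taken from genes with at least 200 counts in every Ribo-seq library and with less than 10% of their 28-base stretches in other genes, and the choice was made after the ratios were seen. The first set holds the most hydrophobic run of 10 codons within the first 40 codons, from the 4 genes with the smallest ratios among the 312 with a hydrophobic window there that lay on the chromosomes searched. Genes on chromosomes left out of the search, such as Saraf (-2.76), Itfg1 (-2.65) and Lamp1 (-2.41), had smaller ratios and are not shown. Capitals mark codons for isoleucine, leucine, valine or phenylalanine.
Bgn: CTGtggCTACTCaccTTGCTGCTGgccCTG
Lrp10: CTAtcggccCTCcctCTTCTTTTCCTCCTC
Arsb: CTCTTGCTGCTGCTGCTGcagCTGCTGCTG
Tm9sf3: gcggccgccgcgTTGTTGTTGCTGCTGCTG
These encode residues 4 to 13 of the matrix proteoglycan biglycan (at chrX:73490799-73490828, plus strand), 2 to 11 of the endocytic receptor LRP10 (chr14:54464578-54464607, plus strand), 22 to 31 of the lysosomal arylsulfatase B (chr13:93771841-93771870, plus strand) and 12 to 21 of the multispanning membrane protein TM9SF3 (chr19:41263792-41263821, minus strand). Each lies within a coding exon, and the log2 ratios of the 4 genes ran from -2.39 to -2.28.

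The other set holds the run of 10 codons richest in lysine and glutamate, from 3 of the 4 genes with the largest ratios among the 136 searched whose proteins are over 8.14% lysine and over 9.01% glutamate. Capitals mark lysine or glutamate codons.
Golga4: AAGAAGctgAAGcagAAGatcagcGAGGAG
Atrx: AAAGAAGAAGAAGAActaactGAAGAAGAA
Bclaf1: GAAGAAAAAGAGagtAAGAAAGAGagaGAA
They encode residues 3 to 12 of the golgin GOLGA4 (chr9:118506492-118506521, plus strand), 2244 to 2253 of the chromatin remodeller ATRX (chrX:105803823-105803852, minus strand) and 764 to 773 of the RNA-binding protein BCLAF1 (chr10:20333468-20333497, plus strand). Between 6 and 8 of the 10 codons in each of these stretches encode lysine or glutamate. Kidney androgen regulated protein (Kap) did not follow the contrast and is shown for that reason. Its stretch encodes residues 6 to 15 (chr6:133853579-133853608, minus strand), holds a hydrophobic signal like the first set (capitals as there), and belongs to the mRNA with the most disome reads.
Kap: GTCCTGGTGATCactGTCTTCtgtggtCTG

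Counts summed over all transcripts were 13573525 to 25882664 in the Ribo-seq libraries and 1249538 to 3018963 in the disome-seq libraries, of which 3707301 to 7106976 and 281987 to 723199 fell on the coding transcripts used. The disome counts therefore set the precision. Log2 counts of the 5550 genes correlated at r = 0.978 to 0.990 between Ribo-seq libraries, at 0.919 to 0.958 between disome-seq libraries and at 0.734 to 0.793 between the assays. The 8 proximal tubule markers all had at least 10 counts in every library and summed to 17018 to 19693 CPM (counts scaled to a common library size) in Ribo-seq and 11784 to 13061 in disome-seq, which matches the tissue label. Acinar enzymes of the pancreas were highest in replicate 1 of both assays. Their 8 markers summed to 1137, 16.2 and 112 CPM in Ribo-seq replicates 1 to 3 and to 166, 6.99 and 46.1 in disome-seq. None of 24 pancreatic enzyme genes had enough disome counts to be tested, so none of these enters a result. Whether reads of other genes came from pancreas was not tested. As tissue was measured in bulk, fewer cells of a type and less RNA per cell cannot be told apart.

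Each value below is a log2 ratio of disome-seq to Ribo-seq after each library was scaled to the tested genes with TMM (trimmed mean of M-values). A ratio of 0 therefore means that a gene had the same scaled level in both assays, which lies at about 0.11 when libraries are scaled to their totals, and says nothing of the share of its ribosomes that were stacked. Over the 5550 genes the ratio had a median of -0.00, an SD of 0.94 and a range of -2.76 to 4.92, with a 5th percentile of -1.297 and a 95th of 1.85. At an adjusted p under 0.05, 1604 genes (28.9%) were higher in disome-seq, 1596 (28.8%) were lower and 2350 did not pass. Called genes were 57.7% of those tested, so a list of genes is read below against 28.9% higher and 28.8% lower. The upper tail was longer, with 218 genes called at a log2 ratio above 2 and 42 at one below -2. A gene with few monosome reads could pass the minimum only with enough disome reads, and genes with many counts had lower ratios. The 2215 tested genes with under 200 counts in some Ribo-seq library had a median of 0.54 and the other 3335 a median of -0.29. For this reason each list is also given over the 3691 genes chosen by at least 200 counts in Ribo-seq alone, of which 28.0% were higher and 29.9% lower around a median of -0.02. That fit rests on other genes for its scaling and moved the ratios of shared genes by a median of 0.36. A sign or call that differs between the fits may therefore come from that scaling rather than from the count filter.

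**Figure D1:**
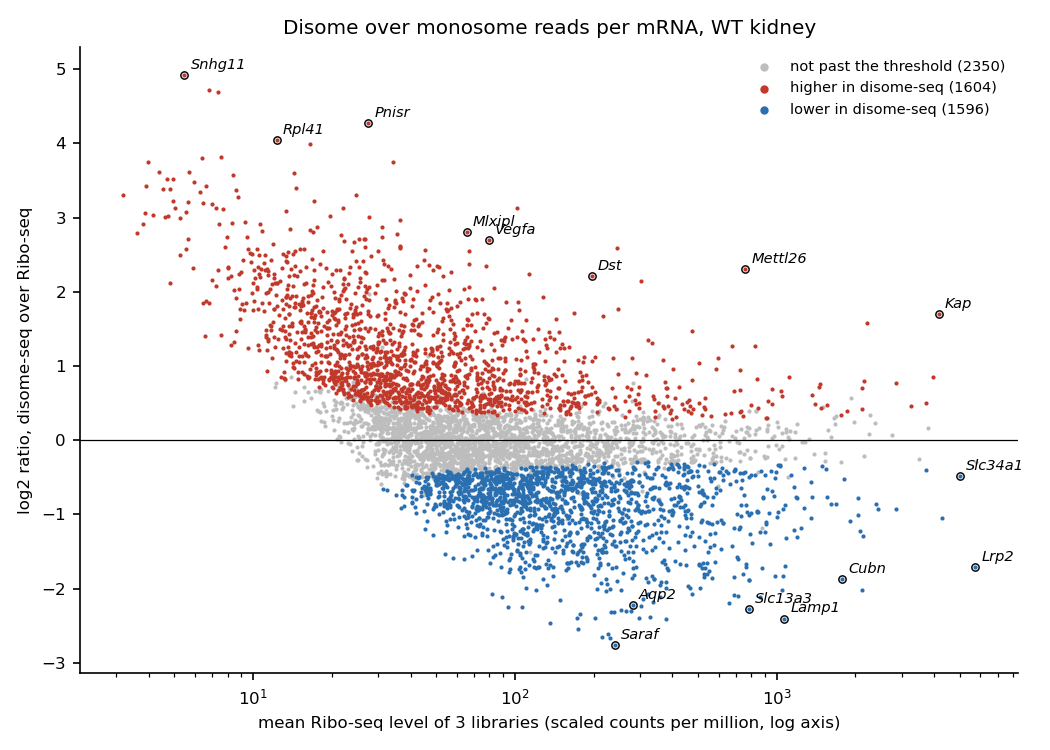
Log2 ratio of disome-seq to Ribo-seq (vertical axis) against mean Ribo-seq level in scaled CPM (horizontal log axis) for the 5550 genes of WT kidney, with called genes coloured by direction and several named genes labelled. The cloud falls from left to right, with Pnisr near 4.28 at the top and Saraf near -2.76 at the bottom, and Kap stands at the upper right with a ratio of 1.70.

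Kap (chr6:133849851-133853762, 121 residues), an androgen-driven secreted protein of the proximal tubule, had the most disome reads of any coding gene. It stood at 3030.0, 4489 and 4952 CPM in Ribo-seq replicates 1 to 3 and at 11403, 10612 and 18504 CPM in disome-seq, so that all 3 disome-seq libraries lay above all 3 Ribo-seq libraries. The means were 4157 ± 1003 and 13506 ± 4346 (SD, n = 3), a 3.25-fold difference and a log2 ratio of 1.70 ± 0.25 (SE, n = 3 libraries of each assay, adjusted p = 2.2e-04). Disome-seq replicate 3, the shallowest library, was the highest.

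Among the other genes with the most disome reads, Ass1, the urea cycle enzyme that starts renal arginine synthesis, went from 2934, 4397 and 3825 CPM in Ribo-seq to 4806, 5366 and 5660.0 CPM in disome-seq (log2 ratio 0.50, adjusted p = 0.013). The assays did not overlap for this gene, but 86.1% of its 28-base stretches occur in other genes. Hspa8, the constitutive cytosolic HSP70, had a log2 ratio of 0.78, adjusted p = 1.2e-04, but shares 95.5%, so the reads of both genes cannot be assigned with certainty. Mettl26, a putative methyltransferase gene named here after its values were seen, combined a high level with a high ratio. It went from 646, 796 and 833 CPM in Ribo-seq to 3215, 2908 and 5169.9 CPM in disome-seq, a 4.95-fold difference (log2 ratio 2.31, adjusted p = 7.0e-06).

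**Figure D2:**
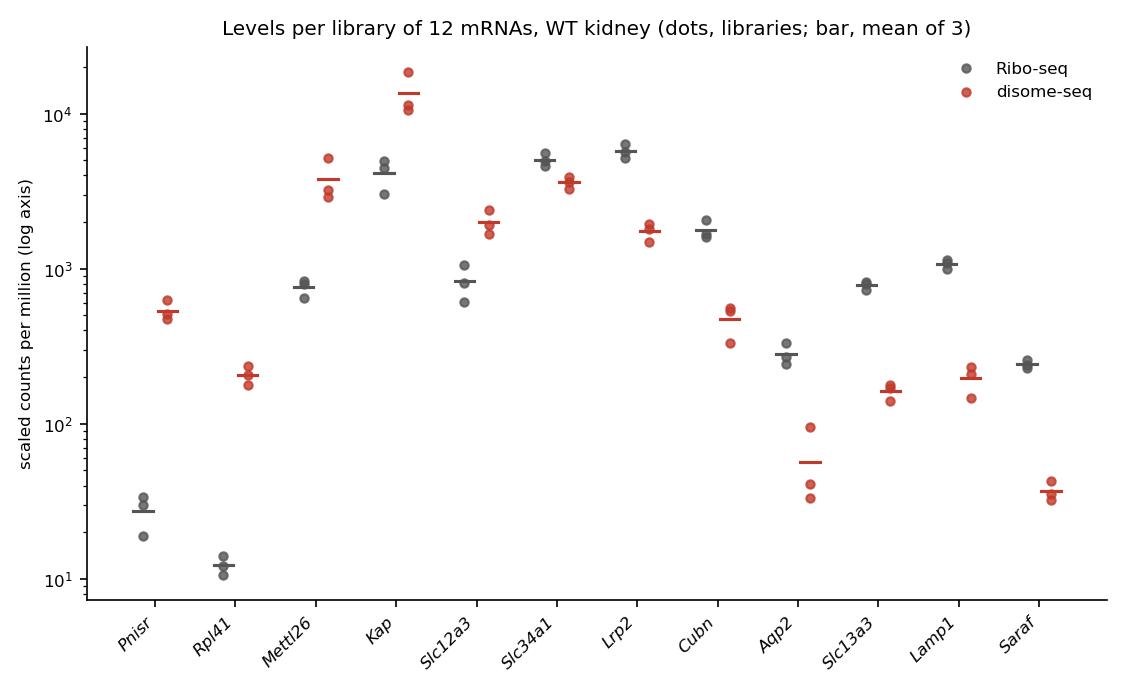
Levels of 12 mRNAs in each WT kidney library, in scaled CPM on a log axis, with grey dots for the 3 Ribo-seq and red dots for the 3 disome-seq libraries and bars for their means. From Pnisr to Slc12a3 the red dots lie above the grey ones, and from Slc34a1 to Saraf they lie below, without overlap within a gene.

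Among genes above 10 CPM in every Ribo-seq library, the largest ratio belonged to Pnisr (chr4:21847583-21876475), which encodes a serine and arginine rich protein of the nucleus. It had 30.1, 33.5 and 18.9 CPM in Ribo-seq and 475, 630.3 and 507 CPM in disome-seq, a 19.4-fold difference with a log2 ratio of 4.28 ± 0.21 (SE, n = 3 libraries of each assay, adjusted p = 6.1e-08). Leng8, a nuclear protein of mRNA metabolism, went from 38.2, 39.5 and 25.1 to 438, 499.9 and 454 CPM (log2 ratio 3.75, adjusted p = 2.8e-08). Tet2, the dioxygenase that oxidises 5-methylcytosine, went from 18.9, 20.8 and 9.87 to 324, 273 and 185 CPM (log2 ratio 3.99, adjusted p = 1.2e-06). In each of these the lowest disome-seq library was several-fold above the highest Ribo-seq library.

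The rest of the 12 largest ratios were at lower mean Ribo-seq levels, the highest being 12.3 CPM for Rpl41. Snhg11, a small nucleolar RNA host gene whose annotation holds a short reading frame, had the largest of all at 4.92 ± 0.22 (SE), with 7.32, 5.98 and 3.1 CPM in Ribo-seq and 179, 162 and 195 in disome-seq. Rpl41 itself stood at rank 5 with a ratio of 4.04 ± 0.17, with 12.2, 10.7 and 14.1 against 207, 177 and 235 CPM and no overlap. The isoform counted for it encodes 46 residues, more than the protein the study describes. Its ratio therefore need not be that of the mRNA for that protein. The others were Col27a1 (3.81), a fibrillar collagen, Taf1d (3.81), a subunit of the RNA polymerase I selectivity factor, Atxn7l2 (3.75), Clasrp (3.62), a splicing regulator, and 4933427D14Rik (3.62). The predicted genes Gm21887 (4.72) and Gm47283 (4.69) share 100% and 84.9% of their stretches with other genes, and Taf1d shares 43.1%. Rpl41 shares 36.0%, as ribosomal protein genes have many processed copies.

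Genes of splicing control were frequent near the top. Of 9 serine and arginine rich splicing factors (Srsf genes) tested, 8 were higher and 0 lower, with a median ratio of 1.37. Srsf5 went from 98.5, 142 and 101 CPM to 514, 589.6 and 500.1 CPM, although it shares 71.6% of its stretches. Srsf11 (1.93), Srsf6 (1.37) and Srsf1 (0.65) share under 10%. The CDC-like kinases, which phosphorylate these factors, and the L cyclins were all higher, 6 of 6 with a median of 2.498. They ranged from 2.03 for Clk1 to 3.41 for Ccnl1. Srrm2, the scaffold of nuclear speckles, was abundant and went from 347, 324 and 240.1 CPM to 1353, 1464 and 1196 CPM (log2 ratio 2.14, adjusted p = 3.0e-07). Bclaf1, whose acidic and lysine-rich stretch is printed above, went from 62.4, 67.1 and 67.4 to 206, 212 and 189 CPM (1.64, adjusted p = 6.1e-07). With at least 200 counts in Ribo-seq alone, 5 Srsf genes and 1 gene of the kinase and cyclin list remained, all called higher. These lists were put together by symbol after the ratios had been seen, so their counts describe the ranking and do not test it.

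Zinc finger genes (symbols Zfp), collected by symbol after the values were seen, gave 57 higher and 2 lower of 70 tested, with a median of 1.25. With the Ribo-seq filter alone 8 Zfp genes were tested, of which 6 were higher and 1 lower around a median of 0.92. Most Zfp genes had too few monosome reads for that filter, so the larger count rests on genes that entered only with enough disome reads.

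A few other mRNAs with a high ratio and at least 200 Ribo-seq counts were named after their values were seen. Mlxipl, the carbohydrate-responsive transcription factor ChREBP, went from 65.9, 68.9 and 61.8 to 471, 478 and 424 CPM, a 7.01-fold difference (2.81, adjusted p = 2.8e-08). Vegfa, the endothelial growth factor made by podocytes and tubule cells, went from 82.4, 91.2 and 64.9 to 508, 537 and 503 CPM (2.70, adjusted p = 6.2e-08). Defb1, a small secreted antimicrobial defensin, went from 201, 249 and 199.998 to 719, 778 and 549.8 CPM (1.67, adjusted p = 1.5e-06). Like Kap it is a secreted protein with a hydrophobic window in its first 40 residues and a ratio above 0.

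The golgins, coiled-coil tethers of the Golgi membrane, were collected by symbol after the values were seen. They were higher in 7 of 7 cases (median 1.62, and 1.98 for the 4 with enough Ribo-seq counts). Golga4 had 129, 134 and 121 CPM in Ribo-seq and 492, 649 and 288 CPM in disome-seq (1.93, adjusted p = 5.4e-05), with disome-seq replicate 3 the lowest of its assay. Of 16 giant cytoskeletal proteins, 7 were higher, 1 was lower and 8 did not pass, with a median of 0.30 (0.64 with the Ribo-seq filter alone, 11 of 15 higher). The members differed widely. Dst (dystonin, 7717 residues) went from 204, 204 and 182 to 979, 1166 and 546 CPM (2.21, adjusted p = 2.4e-05), and Syne2, the nesprin that links nucleus and cytoskeleton, from 289, 234 and 219 to 863, 1159 and 464 (1.77, adjusted p = 0.001). Talin (Tln1) was lower, with 603, 544 and 498 CPM against 430.3, 412 and 394 (-0.41, adjusted p = 0.0096), though not with the Ribo-seq filter alone (-0.05, adjusted p = 0.74). The median of this list was 0.43 and 0.52 in disome-seq replicates 1 and 2 but -0.06 in replicate 3, so the list as a whole was not raised in every library. The 10 giant ubiquitin ligases gave 4 higher, 1 lower and a median of 0.39. With the Ribo-seq filter alone 7 were higher and none lower, with a median of 0.75. Ratios ran from -0.63 for Birc6, which was not called with that filter (-0.27, adjusted p = 0.092), to 1.24 for Mycbp2. Here too replicate 3 had a negative median (-0.15).

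At the other end, the mRNAs with the fewest disome reads relative to monosome reads encoded mainly membrane and secreted proteins. Saraf, an ER membrane protein that limits store-operated calcium entry, had the smallest ratio, with 258, 238 and 228 CPM in Ribo-seq and 32.3, 35.3 and 43.1 CPM in disome-seq, a 6.78-fold lower level (log2 ratio -2.76 ± 0.17 (SE, n = 3 libraries of each assay, adjusted p = 1.3e-07)). Lamp1, a lysosomal membrane glycoprotein, was the most translated of the 12 genes with the smallest ratios, with 994, 1137 and 1083 CPM against 233, 211 and 146 CPM (-2.41, adjusted p = 1.9e-07). No disome-seq library of either gene reached any Ribo-seq library.

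Another 9 of the 12 smallest ratios were those of Itfg1 (-2.65), a membrane protein, Cpd (-2.61), a carboxypeptidase of the Golgi, Mtch1 (-2.54), of the outer mitochondrial membrane, Cyp2d11 (-2.47), a cytochrome P450, Igfbp3 (-2.42), which binds insulin-like growth factors, Fbln5 (-2.40), an elastic fibre protein, Col1a2 (-2.40), a chain of type I collagen, Dgat2 (-2.40), which makes triglycerides, and Bgn (-2.39). Cyp2d11 shares 60.4% of its stretches with other genes. Some well translated mRNAs fell short of the disome minimum altogether: 356 of the 3691 genes with at least 200 counts in every Ribo-seq library were not tested for lack of disome counts. Slc46a1, the proton-coupled folate transporter, had 538, 274 and 254 Ribo-seq counts and 5, 5 and 0 disome-seq counts. Of the 356 genes, 28 had under 10 RNA-seq counts in some library.

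The reabsorbing machinery of the proximal tubule lay almost wholly on the low side. Of 32 transporter genes listed for it, all tested, 29 were lower, 1 was higher and 2 did not pass, with a median of -1.11. With the Ribo-seq filter alone 20 were lower, 1 higher and the median was -0.75. The smallest ratio belonged to Slc13a3, the sodium-dicarboxylate cotransporter, with 796, 724 and 825 CPM in Ribo-seq and 169, 139.9 and 179 CPM in disome-seq (-2.28 ± 0.13 (SE, n = 3 libraries of each assay, adjusted p = 1.1e-07)). Slc5a2 (SGLT2), which takes up most filtered glucose, went from 934, 1061 and 824 to 381, 337 and 354 CPM (-1.39, adjusted p = 2.1e-06). The organic anion transporter Slc22a6 (OAT1) had 1068, 1050.0 and 1135 against 498, 391 and 407 CPM (-1.32, adjusted p = 2.5e-06). The water channel Aqp1 had a log2 ratio of -0.99, adjusted p = 3.1e-05. The most translated of the list, the phosphate cotransporter Slc34a1, was lower by less, with 4597, 5535 and 4932 CPM against 3919, 3260.3 and 3619.9 CPM (-0.48, adjusted p = 0.0068), still without overlap, but was not called with the Ribo-seq filter alone (-0.11, adjusted p = 0.49). The fatty acid transporter Slc27a2 did not pass (-0.26, adjusted p = 0.11) except without Ribo-seq replicate 1 (-0.35, adjusted p = 0.015), and neither did Slc13a1 (-1.18, adjusted p = 0.085). The exception was the phospholipid flippase Atp11a, at 623, 559 and 719.9 and 847, 903 and 669 CPM (0.36, adjusted p = 0.042), where the highest Ribo-seq library exceeded the lowest disome-seq library. That call was lost with counts summed per gene (0.31), without Ribo-seq replicate 1 (0.34) or 2 (0.29) and without disome-seq replicate 1 (0.34) or 2 (0.27). Over all 128 solute carrier genes tested, collected by symbol after the values were seen, 81 were lower, 10 higher and the median was -0.70. With the Ribo-seq filter alone 73 of 119 were lower and 7 higher, with a median of -0.71.

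The endocytic receptors that retrieve filtered protein were lower as well, 9 of 11 with none higher and a median of -1.36 (-1.01 and 9 of 11 lower with the Ribo-seq filter alone, where 1 was higher). Lrp2 (chr2:69424340-69586065) encodes megalin, the main scavenger receptor of the brush border. It had 5647, 6376 and 5162 CPM in Ribo-seq and 1939, 1799.9 and 1480.4 CPM in disome-seq, a 3.28-fold lower level (-1.71 ± 0.14 (SE, n = 3 libraries of each assay, adjusted p = 9.4e-07)). Its coreceptor cubilin (Cubn) went from 1675, 2046 and 1599 to 535, 561 and 331 CPM (-1.87, adjusted p = 4.1e-06) and amnionless (Amn), which carries cubilin to the surface, from 395, 419 and 322 to 102, 95.1 and 106 CPM (-1.91, adjusted p = 6.0e-07). The adaptor Dab2, a cytosolic partner of megalin with no membrane domain, was not called (0.18, adjusted p = 0.18), with 596, 651 and 646 CPM against 683, 698 and 768, and was called higher with library totals (0.30, adjusted p = 0.03) and with the Ribo-seq filter alone (0.55, adjusted p = 0.0018). Megalin is 4660 residues long, so a long protein did not go with a high ratio here.

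Genes of the distal nephron and collecting duct went both ways, 5 higher, 7 lower and 5 not passing of 17, with a median of -0.01. With the Ribo-seq filter alone 5 of 14 were higher and 6 lower, with a median of -0.04. Slc12a3, the thiazide-sensitive sodium chloride cotransporter, was an exception among transporters, with 814, 1058 and 614 CPM in Ribo-seq and 1907, 2383 and 1682 CPM in disome-seq (1.27 ± 0.20 (SE, n = 3 libraries of each assay, adjusted p = 2.6e-04)). Trpm6, the magnesium channel of the same segment, had a ratio of 1.95, adjusted p = 8.4e-05. Slc12a1, the related cotransporter of the loop of Henle and target of loop diuretics, was close to 0 (0.06, adjusted p = 0.76), with 1017, 1027 and 890.3 against 1213, 1045 and 775 CPM and overlapping libraries, and was 0.42 with the Ribo-seq filter alone (adjusted p = 0.028). The vasopressin-regulated water channel Aqp2 was low, with 332, 244 and 269 CPM against 95.5, 40.8 and 33.1 CPM (-2.22, adjusted p = 1.3e-04). Klotho (Kl), the FGF23 coreceptor, had a ratio of -1.83, adjusted p = 5.3e-07, and uromodulin (Umod), the main protein of normal urine, of -0.93, adjusted p = 7.5e-05. The beta subunit of the sodium pump, Atp1b1, was not called (0.30, adjusted p = 0.073). Atp1b1 was called higher under 5 alternatives, with ratios from 0.31 with the replicate block (adjusted p = 0.02) to 0.67 with the Ribo-seq filter alone (adjusted p = 0.0024).

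Of the 13 genes listed as androgen-regulated or secreted, 3 were higher and 7 lower (median -0.61, and -0.25 with the Ribo-seq filter alone). Kap was the largest and Igfbp3, with 428, 402 and 307 CPM in Ribo-seq and 88.8, 59.8 and 59.6 in disome-seq, the smallest. Spink1, a secreted trypsin inhibitor, was higher at 0.95, adjusted p = 1.3e-04, whereas the apolipoprotein Apoe was lower at -1.37, adjusted p = 2.4e-05. Secreted proteins therefore lay at both ends.

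mRNAs for the ER machinery that receives and folds such proteins were low too. ER chaperones and folding enzymes gave 13 lower, none higher and 5 not passing of 18, with a median of -0.91 (-0.59 with the Ribo-seq filter alone). The protein disulfide isomerase P4hb went from 777, 859.7 and 773 to 317, 309.7 and 288 CPM (-1.39, adjusted p = 9.0e-07) and BiP (Hspa5) from 1052, 917 and 691 to 655, 441 and 440.5 (-0.78, adjusted p = 0.0048). With the Ribo-seq filter alone Hspa5 was not called (-0.42, adjusted p = 0.076). Of 25 genes of the translocon, oligosaccharyltransferase and SRP, 14 were lower and 5 higher (median -0.44, and -0.10 with the Ribo-seq filter alone). Those called lower included Stt3b, the catalytic subunit of the oligosaccharyltransferase, with 245, 237 and 215 CPM against 51.1, 47.5 and 36.4 CPM (-2.31, adjusted p = 2.9e-07), and Rpn1 (-1.87, adjusted p = 6.3e-07). The SRP receptor subunit Srpr (0.96, adjusted p = 6.8e-05) and the small tail-anchored Sec61g (1.40, adjusted p = 1.3e-05) were higher, but share 50.8% and 84.4% of their stretches with other genes. Lysosomal enzymes and membrane proteins, collected by symbol after the values were seen, gave 14 lower and none higher of 16, with a median of -1.25. With the Ribo-seq filter alone 14 of 17 were lower and none higher, with a median of -0.93.

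Collagen chains gave 6 lower, 1 higher and 2 not passing of 9, with a median of -1.42 that was -1.37 with the Ribo-seq filter alone. The 2 main chains of the basement membrane, Col4a1 with 592, 649.7 and 356 CPM in Ribo-seq against 153, 217 and 89.4 in disome-seq (-1.73, adjusted p = 0.0019) and Col4a2 (-1.67, adjusted p = 6.2e-04), were low. The glomerular chain Col4a3 was not called (0.30, adjusted p = 0.26) but was higher with the replicate block (0.27, adjusted p = 0.023), with the Ribo-seq filter alone (0.66, adjusted p = 0.019) and without disome-seq replicate 3 (0.52, adjusted p = 0.013), and Col27a1 was the single chain called higher. Laminins and other basement membrane genes split, 3 higher and 5 lower of 9, from -1.43 for perlecan (Hspg2) to 1.11 for Lama5. With the Ribo-seq filter alone 1 of 9 was higher and 4 were lower, with a median of -0.49.

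**Figure D3:**
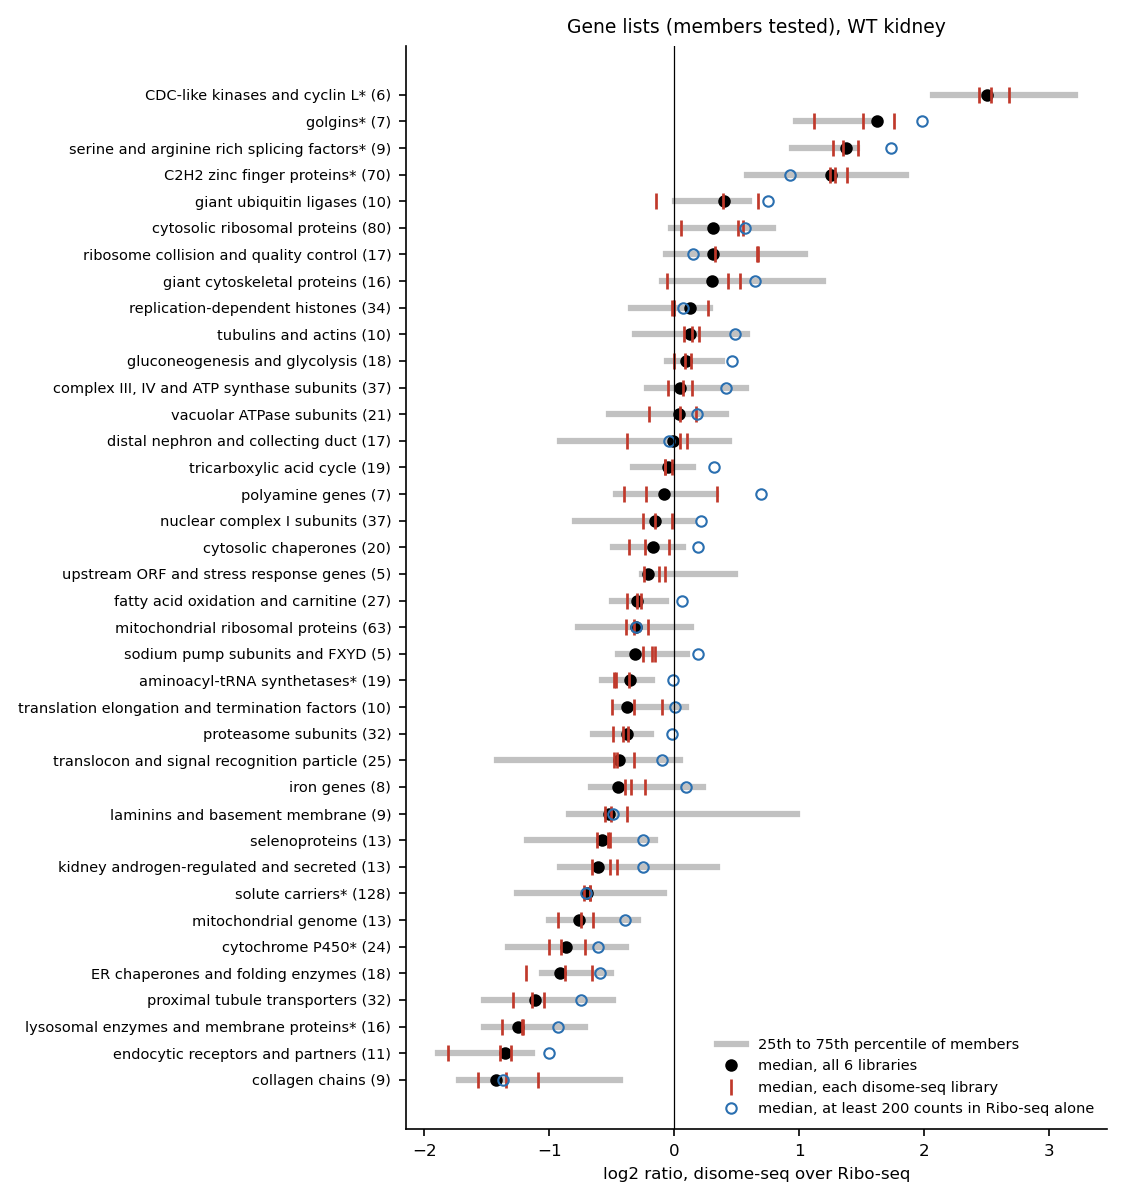
Gene lists with at least 5 tested members, ordered by their median log2 ratio (black dot), with the 25th to 75th percentile of members (grey bar), the median in each disome-seq library (red ticks) and the median with at least 200 counts in Ribo-seq alone (open blue circle). Asterisks mark lists collected by symbol after the values were seen. Collagen chains (-1.42) and endocytic receptors (-1.36) lie at the bottom and the CDC-like kinases and L cyclins (2.498) at the top.

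Ribosomal proteins of the cytosol gave 35 higher, 8 lower and 37 not passing of 80, with a median of 0.31, and 31 higher and none lower of 60 with the Ribo-seq filter alone (median 0.56). Their median was 0.51, 0.06 and 0.55 in disome-seq replicates 1 to 3. All but 1 of the 80 genes share at least 10% of their 28-base stretches with processed copies or have few RNA-seq counts, so how the reads were divided between copies cannot be told apart from the ratios. Mitochondrial ribosomal proteins, with far fewer copies, gave 7 higher and 28 lower of 63 (median -0.30 with either filter). Proteasome subunits gave 19 lower and none higher of 32 (median -0.38), but 7 lower and 4 higher around -0.02 with the Ribo-seq filter alone. Subunits of complex I had a median of -0.15, and 0.21 with that filter, and fatty acid oxidation enzymes -0.30 and 0.06. The proteasome, complex I and fatty acid oxidation lists had the same numbers of genes tested under both filters (32, 37 and 27). Their shifts were close to the 0.36 by which that fit's scaling moved shared genes. The changes of sign cannot be told apart from that scaling. The 4 haemoglobin genes tested, read from blood in the tissue, were all lower, with a median of -1.56. With the Ribo-seq filter alone all 4 were again lower, with a median of -1.20. Hba-a1 had 728, 883 and 751 CPM in Ribo-seq against 223, 213 and 202 in disome-seq (-1.88, adjusted p = 2.7e-07), though its 94.0% shared stretches leave it uncertain which alpha-globin gene the reads came from.

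The 13 protein-coding genes of the mitochondrial genome are translated by mitochondrial ribosomes, which protect footprints of their own. Of these, 9 were lower, 1 was higher and 3 did not pass, with a median of -0.77 in WT (-0.40 with the Ribo-seq filter alone) but 0.09 in the Rpl41 KO libraries. Mt-Cytb, which has few copies elsewhere, had a ratio of -0.85, adjusted p = 2.0e-04. The gene called higher, mt-Nd6, is the single one on the light strand and overlaps mt-Nd5 over only 2.70% of its exon. Its values of 387, 470.0 and 563 CPM in Ribo-seq and 1341, 1589 and 984 CPM in disome-seq cannot be told apart from reads of the other strand, as it is not stated whether counting used strand.

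Genes known for programmed pausing or regulated translation were of moderate ratio. Xbp1, whose nascent chain arrests the ribosome during the unfolded protein response, had 169, 101 and 99.0 CPM in Ribo-seq and 289, 175 and 229 CPM in disome-seq, with a ratio of 0.90 ± 0.25 (SE, n = 3 libraries of each assay, adjusted p = 0.011). All 3 disome-seq libraries lay above the Ribo-seq libraries, but the call was lost without disome-seq replicate 1 (0.69, adjusted p = 0.067). Atf4, which is controlled by upstream reading frames, had 27.4, 22.1 and 26.2 against 51.1, 39.4 and 49.7 CPM (0.86, adjusted p = 0.0025), also without overlap. Both counts are of the whole transcript, so reads at the pause site or in upstream frames are not separated. Sec61b was slightly lower (-0.46, adjusted p = 0.019), but the call was lost under 6 alternatives, with adjusted p from 0.054 in DESeq2 to 0.57 with the Ribo-seq filter alone (-0.10), and also without Ribo-seq replicate 2 (-0.38) or disome-seq replicate 1 (-0.44), with library totals and with no filter beyond 1 count. The polyamine genes Azin1 (0.07, adjusted p = 0.78) and Odc1 (-0.69, adjusted p = 0.12) were not called, although Odc1 was lower with the replicate block (-0.61, adjusted p = 5.3e-06) and without Ribo-seq replicate 2 (-0.92, adjusted p = 0.0077). Amd1 was lower (-0.49, adjusted p = 0.024), but its stretches are all shared with other genes (100%) and the call was lost in DESeq2 (-0.49, adjusted p = 0.092), with library totals, with no filter beyond 1 count, and without Ribo-seq replicate 1 (-0.46) or disome-seq replicate 1 (-0.46) or 3 (-0.46).

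The mRNAs of factors that sense and resolve collisions varied in their ratios. Of 17 tested, 8 were higher, 3 were lower and 6 did not pass, with a median of 0.31. With the Ribo-seq filter alone 4 of 10 were higher and 2 lower around a median of 0.15. Ankzf1, the hydrolase that frees the nascent chain from the split subunit, had the largest ratio, with 17.2, 15.6 and 14.1 CPM in Ribo-seq and 78.0, 105 and 106 CPM in disome-seq (2.57 ± 0.18 (SE, n = 3 libraries of each assay, adjusted p = 3.0e-07)). The rescue factor Gtpbp2 followed at 1.798, adjusted p = 1.8e-05. The translation repressor Gigyf2 was at 1.26, adjusted p = 7.5e-06, and the sensors Edf1 and Zfp598 were at 0.82, adjusted p = 1.6e-04 and 0.75, adjusted p = 0.0073, although Edf1 shares 44.0% of its stretches with other genes. Nemf, which tails the stalled chain, was higher (1.04, adjusted p = 3.6e-05), while the ubiquitin ligase Ltn1 that acts with it was lower (-0.84, adjusted p = 4.5e-04), with 122, 117 and 126 against 72.6, 72.0 and 53.0 CPM.

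Properties of the encoded protein differed along the ranking. Among 5470 genes with a complete annotated coding sequence, the median ratio fell from 0.12 in 3771 genes with no hydrophobic window (19 residues with a mean Kyte-Doolittle score of at least 1.6) to -0.21 with 1 window, -0.38 with 2 to 4 and -0.70 in 240 genes with 5 or more. The secreted or matrix proteins Igfbp3, Fbln5 and Col1a2 had no such window, so the group without one is not free of secreted proteins. A window in the first 40 residues, where signal peptides lie, marked 522 genes. Of these 344 (65.9%) were lower and 58 (11.1%) higher, with a median of -0.83, and the median was -0.72 with the Ribo-seq filter alone, -0.76 among genes with few shared stretches and -0.87 in the Rpl41 KO libraries. Where that window was the only one in the protein, the median over 244 genes was -0.77. Genes whose windows all lay further along had a median of -0.17. The medians fell with the number of windows in each disome-seq library, and those of the genes with an early window lay between -0.85 and -0.76.

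Shares of glutamate and lysine went the other way. Across genes the ratio correlated with the share of glutamate at rho = 0.28 and of lysine at rho = 0.23, and with the number of hydrophobic windows at rho = -0.28 (n = 5470, Spearman). With the Ribo-seq filter alone these were 0.28, 0.34 and -0.36 (n = 3632). Other residues had values of like size, such as valine (-0.31), phenylalanine (-0.28) and serine (0.23). With that filter they were -0.20, -0.22 and 0.03. In 5 groups of 1094 genes each, the group richest in glutamate had a median of 0.34 and the poorest one of -0.28, and the same groups for lysine gave 0.26 and -0.22. Genes are not independent replicates, all points share the same 6 libraries, and amino acid shares depend on one another. The lysine codon AAA (rho = 0.21) and the glutamate codon GAA (0.23) gave higher values than their synonyms AAG (0.14) and GAG (0.16). The share of arginine had a rho of 0.21 and that of the other acidic residue, aspartate, of 0.05. Arginine had 0.13 and aspartate 0.15 with the Ribo-seq filter alone, so their order depended on the filter.

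Other relations depended on the filter. Protein length correlated with the ratio at rho = 0.25 but at 0.04 with the Ribo-seq filter alone, RNA-seq level at -0.35 but at 0.02, and the longest run of prolines at 0.18 but at 0.04. In 10 groups of 547 genes by protein length, the group of the longest proteins (1348 to 8799 residues) had medians of 0.61 and 0.49 under the 2 filters, and 314 of its genes were called higher and 55 lower. The group of the shortest proteins had medians of 0.03 and 0.26. Third-position GC content had weak negative values (-0.16 and -0.19). By stop codon the medians were -0.00, -0.01 and -0.00 for TAA, TAG and TGA, and 0.11, 0.09 and 0.02 with the Ribo-seq filter alone.

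**Figure D4:**
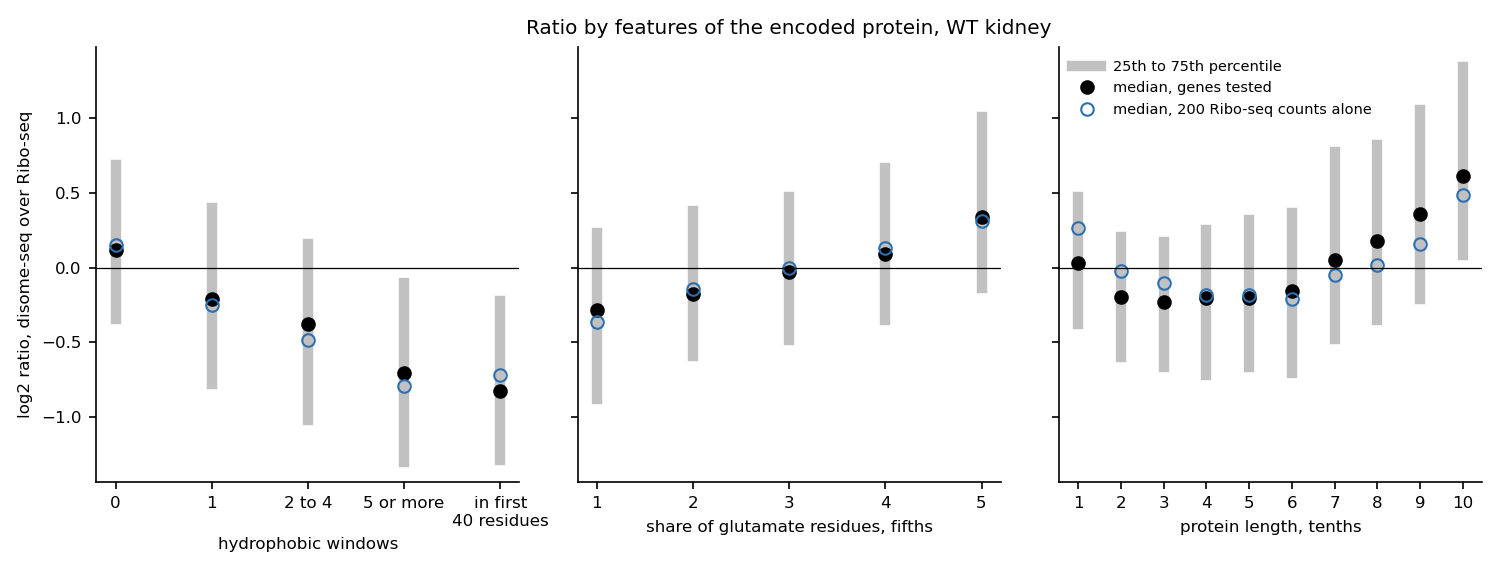
Median log2 ratio (black dots, with grey bars from the 25th to the 75th percentile) by number of hydrophobic windows, by 5 groups of the glutamate share and by 10 groups of protein length, with open blue circles for genes with at least 200 counts in Ribo-seq alone. The medians fall from 0.12 to -0.70 with the number of windows and rise from -0.28 to 0.34 with glutamate, while by length the last group is the highest under both filters.

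RNA that is not translated also took a larger share of the disome-seq reads. On the same scale Malat1, a nuclear long noncoding RNA, had a log2 ratio of 5.28, with 4230, 3369 and 867 counts in the Ribo-seq libraries and 13781, 16340 and 5553 in the shallower disome-seq libraries. The 7SK RNA (Rn7sk) had a ratio of 4.87, the RNA component of RNase MRP (Rmrp) 3.60 and Neat1 3.75. By annotated class, with the same minimum of 10 counts, median ratios were 4.57 for 24 small nuclear RNAs, 5.95 for 13 small nucleolar RNAs, 2.95 for 22 mitochondrial tRNAs and 1.71 for 58 lincRNA transcripts, against 0.08 for all protein-coding transcripts. Of these, Malat1 and the median small nucleolar RNA passed both Pnisr (4.28) and Snhg11 (4.92), 7SK and the median small nuclear RNA passed Pnisr alone, and the others were below both. A transcript with a retained intron passed the same minimum in 1920 of the 5550 genes, in 41 of the 100 genes with the largest ratios and in 23 of the 100 with the smallest. Whether nuclear or otherwise untranslated fragments of this length contribute to the high ratios of single mRNAs was not tested.

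The Rpl41 KO kidneys gave a second set of libraries that played no part in the WT ranking. They differ in genotype, and Rpl41 itself has no KO value. In KO, 5038 genes were tested, of which 61.7% were called, and 1594 (31.6%) were higher and 1514 (30.1%) lower. Of the 1604 genes higher in WT, 1359 were tested in KO, 1348 had the same direction, 1188 (87.4%) were called higher and none was called lower. Of the 1596 lower in WT, 1292 were tested, 1278 had the same direction, 1116 (86.4%) were called lower and none was called higher. All 77 of the 100 largest WT ratios that could be tested were called higher, and all 82 of the 100 smallest were called lower. Pnisr had a KO ratio of 4.40, Kap of 1.98, Lrp2 of -1.75 and Slc13a3 of -2.21. Over the 4535 genes tested in both genotypes the ratios correlated at r = 0.955 and differed by a median of 0.169, close to the median SE of 0.165 in WT. The difference between genotypes in the ratio, tested as an interaction in edgeR, passed the adjusted threshold for 0 of 4535 genes, and 269 (5.93%) had an unadjusted p under 0.05. With the replicate number within each genotype as a block, a fit added after seeing the data, 24 genes (0.529%) passed and 434 (9.57%) had an unadjusted p under 0.05. Of the 24, 16 had a higher ratio in KO and 8 a lower one. Among genes described above these were Atp11a, Tet2 and Col27a1, higher in KO by 0.74, 1.05 and 1.24 on the log2 scale, and Hspg2 and Lama5, whose ratios were -2.70 and 0.14 in KO against -1.43 and 1.11 in WT.

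**Figure D5:**
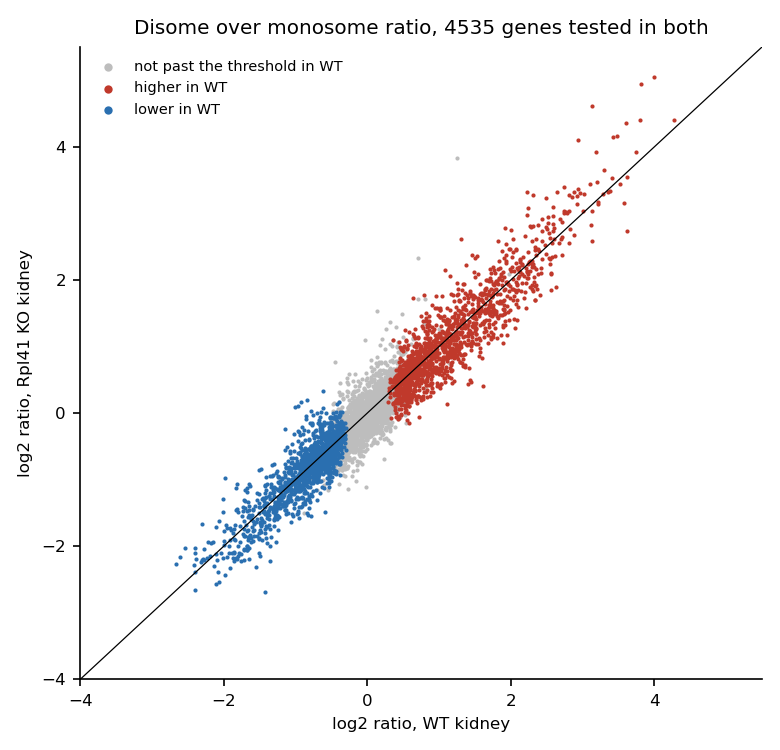
Log2 ratio of disome-seq to Ribo-seq in Rpl41 KO kidney (vertical axis) against WT kidney (horizontal axis) for the 4535 genes tested in both, coloured by the call in WT, with the line of equal ratios. The points follow the line from about -3 to 5 (r = 0.955), and no gene called in WT was called in the opposite direction in KO.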

How the data were processed

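Ribo-seq, disome-seq and RNA-seq libraries of WT and Rpl41 KO mouse kidney, 3 of each, were used. Per the labels, RNase I footprints were pelleted through sucrose and gel-selected at 17 to 34 (Ribo-seq) or 50 to 80 nucleotides (disome-seq), and RNA-seq was of polyadenylated RNA. The authors depleted rRNA with riboPOOL probes, trimmed adaptors with cutadapt, removed reads matching human rRNA, aligned with STAR to the mouse transcriptome and mm10 genome with multimapping reads allowed, and deposited raw read counts per transcript from featureCounts (Subread), with no normalization. Versions and the use of strand in counting are not given in the sources used here. A read that fits several genes or isoforms can count in each. The 28 value columns of a human table carry titles of mouse samples and were not used.

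Of 142604 transcripts, 141374 matched GENCODE M21 on GRCm38 by identifier, and the transcript with the longest protein stood for each of 22484 coding genes. Genes with at least 10 counts in all 6 libraries were tested with the quasi-likelihood F-test of edgeR 4.0.16 (robust fit, TMM scaling, assay as the only term), Benjamini-Hochberg adjustment over all genes tested and a threshold of 0.05. Ratios are disome-seq over Ribo-seq, CPM are scaled by TMM, and errors are SE or SD over libraries. The labels number the replicates without naming animals, the study calls its mouse Ribo-seq replicates biological and gives 3 kidneys per genotype for disome-seq, and p-values measure the spread between these libraries. In simulated counts of 5550 genes the test called 94% of genes changed by 1 on the log2 scale, 99% of those changed by 2 and 14 of 5350 unchanged genes. There only 200 genes were changed, up and down alike, and libraries were independent. In the data 57.7% of genes were called, so these rates need not hold for the real calls. Rpl41 KO libraries were fitted the same way.

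Same-numbered Ribo-seq and disome-seq libraries deviated together (r = 0.17, 0.38 and 0.38 in WT and 0.28, 0.28 and 0.14 in KO). Differently numbered ones had r from -0.34 to 0.08, so the numbers may pair the samples. This pairing was seen in the data, no label states it, and the main test left it out. Shared sequence was measured as the share of 28-base stretches of a gene's coding sequence found in transcripts of other genes. Stretches of its untranslated regions were not searched, so a low share does not show that all its reads are its own. No stretch of sequence was taken from chromosomes 8, 18 and M.

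The genes named were the 12 largest and 12 smallest ratios among called genes whose assays did not overlap, the extremes and the most translated members of each gene list, known pausing genes, and the 5 genes with the most disome counts. Genes named outside this rule are marked as such. Some items that these rules also name, Ddit3 among them, are not reported here. The members, the lists and the rule were chosen with earlier results of these data known. Alternatives were DESeq2 1.42.0, library totals, other count minimums, counts summed per gene, genes with few shared stretches and at least 100 RNA-seq counts, the replicate block and leaving out each library.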

Additional observations from a re-analysis of the deposited data

Results flagged for a closer look

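For 5 genes described above, the log2 ratio of disome-seq to Ribo-seq differed between genotypes when the replicate number was a block (edgeR, adjusted over 4535 genes), while no gene passed without the block. The ratio was higher in Rpl41 KO than in WT by 0.74 for Atp11a, by 1.05 for Tet2 and by 1.24 for Col27a1. It was lower in KO by a log2 difference of -1.14 for Hspg2 and of -0.93 for Lama5. The cause was not tested.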

How the results depend on the processing

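The numbers of genes called in WT kidney (1604 higher, 1596 lower of 5550) stayed within 1.5 times under library totals (1865 and 1286) and DESeq2 (1522 and 1412). The same held for counts summed per gene (2154 and 2052 of 7952). It held too for genes with few shared stretches and RNA-seq counts (1246 and 1180 of 4123, chosen after seeing the data). With no minimum beyond 1 count, 3009 were higher and 3715 lower of 19968 genes in WT, and 2784 and 3455 in KO. With at least 200 counts in Ribo-seq alone, 1033 were higher in WT, and 888 were higher and 957 lower in KO, where fewer genes entered. With the replicate block the counts were 1796 and 1833 in WT and 1726 and 1643 in KO, and among 190 named genes the block added 12 calls and lost none. It also took the genes whose ratio differed between genotypes from 0 to 24, a fit chosen after seeing the data. Leaving out 1 library gave 1340 to 2290 higher and 1302 to 2188 lower in WT. The largest counts came without disome-seq replicate 3, where 8408 genes were tested. Library totals moved the median of all genes by 0.11. Among named genes called in either fit, the ratio changed sign for Rpl4 (0.36), Ehhadh (0.34) and Sptbn1 (0.31), all with 200 counts in Ribo-seq alone, a fit whose scaling moved shared genes by 0.36. Depth limits the disome side, and 356 well translated genes had too few disome counts to be tested.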
